A study of Rattus norvegicus with 14 samples.

Results

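The aryl hydrocarbon receptor battery is the set of genes built around the receptor Ahr and the genes it is best known to switch on. It was examined here as 7 genes, Ahr, Ahrr, Cyp1a1, Cyp1a2, Cyp1b1, Nqo1 and Aldh3a1, of the 14497 genes with a usable value. The members were chosen by name. Each had 1 probe set annotated with its symbol alone, so all 7 were measured and no choice between probe sets arose. Foreskins came from Sprague Dawley rat pups on postnatal day 5, after their mothers had been gavaged daily on gestational days 16 to 20. Dams of 7 litters received flutamide, an antiandrogen drug, at 5 mg/kg/day, and dams of the other 7 litters received corn oil alone. RNA of 2 foreskins was pooled per litter and hybridised to an Affymetrix Gene 1.0 ST array. The litter is therefore the replicate (n = 7 per group), and pups were not dosed after birth as far as the labels say.

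The receptor is a ligand-activated transcription factor that waits in the cytoplasm with heat shock protein chaperones. A bound ligand sends it to the nucleus, where it pairs with Arnt and binds the xenobiotic response element, whose core is the letters GCGTG. Its targets include cytochrome P450 enzymes of family 1, which oxidise aromatic compounds and usually lower the ligand again, and Ahrr, a repressor that competes for Arnt. In skin the receptor is active in keratinocytes, sebocytes and fibroblasts. Flutamide can act as a ligand of this receptor besides blocking the androgen receptor. The comparison asked whether any trace of that pathway was seen in foreskin after dosing had ended before birth.

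The upstream sequences of Ahrr, Ahr and Cyp1b1 are shown with every GCGTG core, on either strand, in capitals (CACGC marks the opposite strand). They are the 250 bases before the annotated start, 5′ to 3′, from RefSeq on build GRCr8: chr1:30821969-30822218 on the plus strand for Ahrr, chr6:57998902-57999151 on the minus strand for Ahr and chr6:21094315-21094564 on the plus strand for Cyp1b1.
Ahrr: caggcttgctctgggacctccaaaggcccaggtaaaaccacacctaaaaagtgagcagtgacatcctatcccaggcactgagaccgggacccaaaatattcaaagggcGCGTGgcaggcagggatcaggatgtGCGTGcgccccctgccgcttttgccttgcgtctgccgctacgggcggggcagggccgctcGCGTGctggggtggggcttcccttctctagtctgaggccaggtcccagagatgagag
Ahr: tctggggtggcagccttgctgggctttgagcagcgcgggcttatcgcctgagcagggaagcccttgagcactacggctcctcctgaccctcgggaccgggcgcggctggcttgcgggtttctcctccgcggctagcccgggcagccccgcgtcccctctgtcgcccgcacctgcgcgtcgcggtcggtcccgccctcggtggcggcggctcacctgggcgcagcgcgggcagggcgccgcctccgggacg
Cyp1b1: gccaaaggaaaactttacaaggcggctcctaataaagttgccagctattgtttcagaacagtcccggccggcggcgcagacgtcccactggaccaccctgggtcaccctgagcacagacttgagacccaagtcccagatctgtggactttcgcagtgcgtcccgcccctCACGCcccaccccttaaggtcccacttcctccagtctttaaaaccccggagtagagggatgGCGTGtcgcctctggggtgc
The Ahrr window held 3 cores, with first bases 142, 117 and 57 bases before the start. The last of them is part of the longer form TNGCGTG, read as TCGCGTG. The Cyp1b1 window held 2, 81 and 20 bases before the start, the second again within a longer form, TGGCGTG. The Ahr window, with a GC content of 75.2%, held none. Entries were found for 5 of the 7 members. Nqo1 had 1 core, 10 bases before its start, and Cyp1a2 had none. Cyp1a1 and Aldh3a1 had no entry. Among 33469 promoter windows of this length, 25.9% held at least 1 core, 8.12% held 2 or more and 2.58% held 3 or more. The longer form was in 4.09% of them. The antioxidant response element core TGACNNNGC, found in 10.1% of windows, was in none of the 5 on either strand. These are letter matches in a short window and no record of binding.

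Several litters stood apart from the rest. Flutamide replicate 1 had a mean log2 value of 5.77 over 9 interferon response genes, a list added with that fact known, against 4.32 to 4.64 in the other 13 litters. Corn oil replicate 1 had the widest spread of values, an SD of 1.60 over all genes, and flutamide replicate 7 the narrowest, 1.48, against 1.52 to 1.58 in the other 12. Sample medians differed by at most 0.045, and pairs of samples correlated at 0.984 to 0.992 across genes. Precision depends on how many arrays there were and on each gene's spread between litters. The median standard error of a difference was 0.07 over all genes, and it ran from 0.06 to 0.09 among the members.

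None of the 7 members passed limma's test at an adjusted p under 0.05, where 1 of all 14497 genes (0.0069%) did. That gene was Snrpf, a spliceosome gene outside the battery, named here after its value was seen. Differences among the members ran from -0.15 for Cyp1b1 to 0.19 for Cyp1a2 on the log2 scale, flutamide minus corn oil. Of the members, 4 lay below 0 and 3 above, with a median of -0.007, against a median of 0.005 over all genes. All 7 confidence intervals of 95% lay within a change of 1.5-fold in either direction. The lowest bound was 0.790-fold, for Cyp1b1, and the highest 1.29-fold, for Cyp1a2. These intervals bound the array values. Cyp1a1 and Aldh3a1 were in the lowest 25% of all genes by mean value. Whether their intervals also bound a change in RNA was not tested. At an unadjusted limma p under 0.05 there was 1 member, Cyp1a2, and 9.16% of all genes passed that looser limit. The flutamide and corn oil litters overlapped for every member, and they were fully apart for 0.124% of genes.

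Values for single litters are on the authors' log2 scale, where a step of 1 is a doubling. Levels of different genes cannot be compared, because each probe set binds with its own strength. In a whole tissue, fewer cells of a type and less RNA per cell cannot be told apart.

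**Figure D1:**
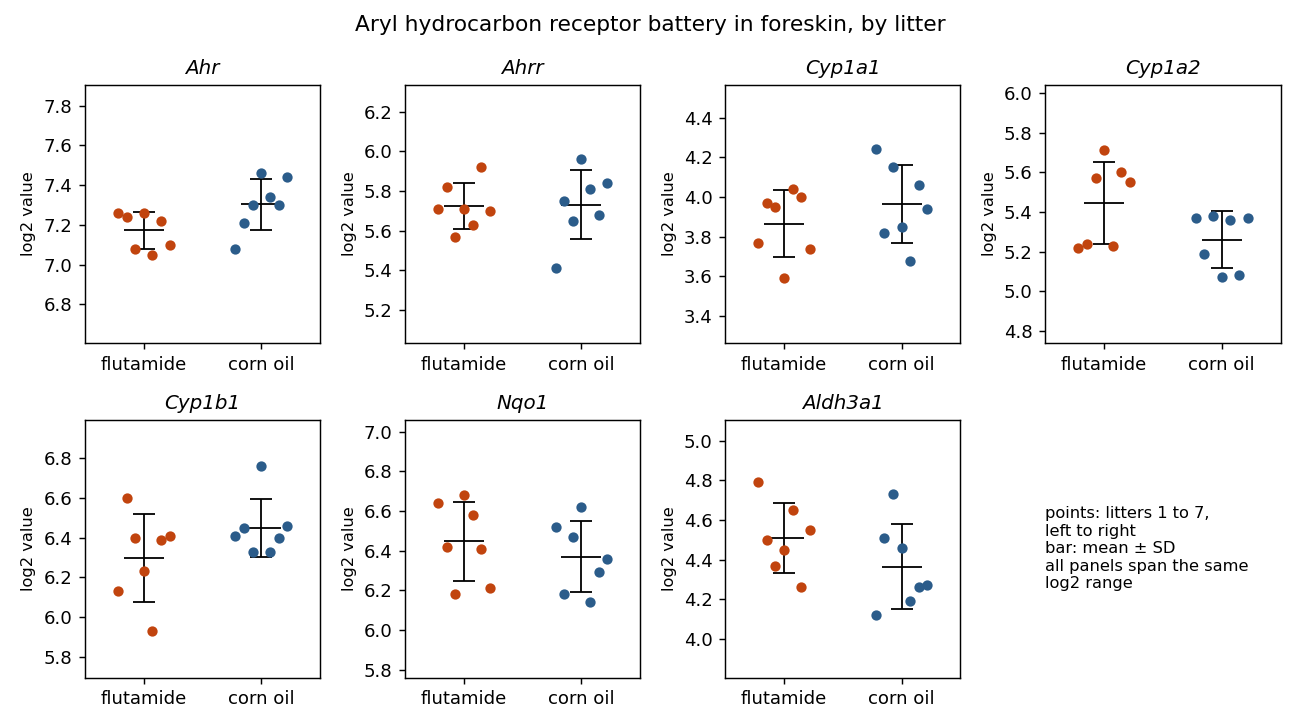
Log2 value of each battery member (y axis) in flutamide litters (left) and corn oil litters (right), 1 point per litter, with mean and SD (n = 7 each) and the same log2 span in all panels. The groups overlap in every panel, and all 7 flutamide litters lie below the corn oil median for Ahr.

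Ahr, the receptor itself, had its lowest, median and highest values at 7.05, 7.22 and 7.26 in flutamide litters, against 7.08, 7.30 and 7.46 in corn oil litters. All 7 flutamide litters were below the corn oil median, and 5 corn oil litters were above the highest flutamide litter. Corn oil replicate 1, at 7.08, lay among the low flutamide litters. Means were 7.17 ± 0.09 in flutamide and 7.30 ± 0.13 in corn oil litters (SD, n = 7 each). The difference of -0.13 (SE 0.06, interval -0.27 to 0.005) had a limma p of 0.0583 and an adjusted p of 0.562. The two-sided exact permutation test over the 3432 splits of the litters gave p = 0.0490, or 0.584 adjusted over all genes.

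Ahrr, the repressor that the receptor induces as a brake on itself, differed least between the groups. Its values were 5.57, 5.71 and 5.92 at the lowest, median and highest in flutamide litters, against 5.41, 5.75 and 5.96 in corn oil litters. The corn oil litters held both the highest and the lowest value. The difference was -0.01 (SE 0.08, interval -0.17 to 0.15; limma adjusted p = 0.989).

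Cyp1a1, the P450 enzyme most used as a readout of receptor activation, was at 3.59, 3.95 and 4.04 in flutamide litters and at 3.68, 3.94 and 4.24 in corn oil litters (lowest, median and highest). The medians nearly coincided, and 3 corn oil litters exceeded the highest flutamide litter. The difference was -0.10 (SE 0.09, interval -0.28 to 0.09; limma adjusted p = 0.779), a 0.935-fold level with bounds of 0.821 and 1.06. It was -0.14 after quantile normalization and -0.06 with the SD of each sample's values as a covariate. Without flutamide replicate 7 and corn oil replicate 1 it was -0.03. Cyp1a1 and Aldh3a1 were the 2 members in the lowest 25% of all genes by mean value.

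Cyp1a2, the close relative of Cyp1a1 that is mainly a liver enzyme, had the largest difference of the members. Its values were 5.22, 5.55 and 5.71 in flutamide litters, against 5.07, 5.36 and 5.38 in corn oil litters. The flutamide litters formed 4 values above every corn oil litter and 3 within the corn oil range. Means were 5.45 ± 0.21 in flutamide and 5.26 ± 0.14 in corn oil litters (SD, n = 7 each), a difference of 0.19 (SE 0.09, interval 0.004 to 0.37). The limma p was 0.0459, with an adjusted p of 0.541, and the exact permutation p was 0.0682. A larger difference in either direction was found for 6.66% of all genes.

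More genes had higher than lower values at that unadjusted limit, 826 (5.7%) against 502 (3.46%). With the median of each sample subtracted the counts were 668 and 641, and the Cyp1a2 difference was 0.18 with an unadjusted limma p of 0.0562. Under the same scaling Ahr stood at -0.14 with an unadjusted limma p of 0.0415.

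Cyp1b1, the family 1 enzyme of stromal and hormone-responsive tissues, which also oxidises oestradiol, had values of 5.93, 6.39 and 6.60 in flutamide litters and of 6.33, 6.41 and 6.76 in corn oil litters. The medians were close, while 3 flutamide litters (replicates 1, 4 and 5) lay below all corn oil litters. Corn oil replicate 4 stood well above the other 6 of its group. The difference of -0.15 (SE 0.09, interval -0.34 to 0.04) had a limma adjusted p of 0.652. It was -0.09 without flutamide replicate 5 and -0.10 without corn oil replicate 4.

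Nqo1, a quinone reductase under the control of both the receptor and the oxidative stress factor Nrf2, was at 6.18, 6.42 and 6.68 in flutamide litters, against 6.14, 6.36 and 6.62 in corn oil litters. Both groups covered nearly the same range. The difference was 0.08 (SE 0.09, interval -0.11 to 0.27; limma adjusted p = 0.838).

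Aldh3a1, an aldehyde dehydrogenase abundant in cornea and inducible by dioxin in rat liver, was at 4.26, 4.50 and 4.79 in flutamide litters and at 4.12, 4.27 and 4.73 in corn oil litters. The highest flutamide litter was replicate 1, and 6 of the 7 flutamide litters were above the corn oil median. The difference of 0.15 (SE 0.09, interval -0.05 to 0.34) had a limma adjusted p of 0.671, and it was 0.10 without flutamide replicate 1.

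Leaving out 1 litter at a time, including those that stood apart, brought no member past the test, and 6 of the 7 members held their sign in all 14 fits. Their differences ran from -0.17 to -0.10 for Ahr, from -0.14 to -0.05 for Cyp1a1, from -0.20 to -0.09 for Cyp1b1, from 0.14 to 0.22 for Cyp1a2, from 0.04 to 0.12 for Nqo1 and from 0.10 to 0.21 for Aldh3a1. Ahrr ran from -0.06 to 0.03.

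The lists around the pathway also gave no call. They cover the receptor complex, other direct targets, Nrf2, other xenobiotic receptors with P450 partners, and skin barrier genes. Of the 36 genes listed, 29 were measured, 14 above and 15 below 0. Their median difference was -0.0001, and none passed limma's adjusted test. Only Cyb5a, 1 of the 29, had an unadjusted limma p under 0.05, a limit that 9.16% of all genes passed.

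**Figure D2:**
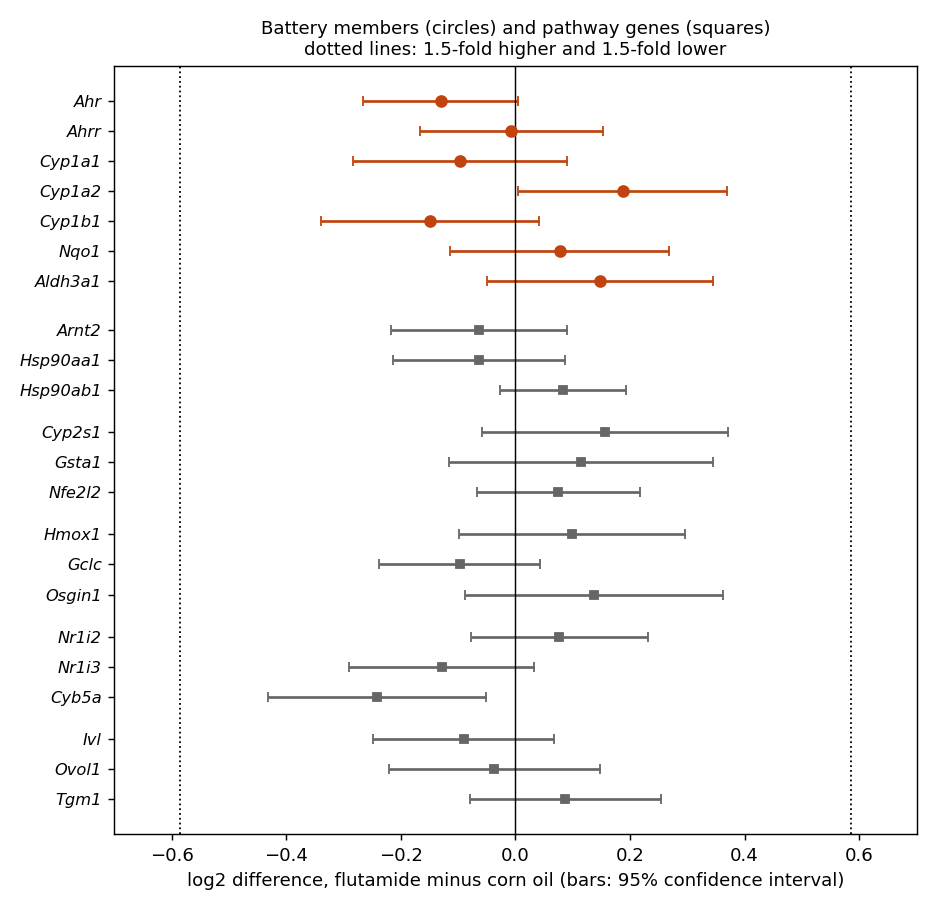
Log2 difference, flutamide minus corn oil (x axis), with 95% confidence intervals from limma (n = 7 litters per group), for the 7 battery members (circles) and the 3 genes with the smallest p-value of each pathway list (squares). No interval reaches the dotted lines at 1.5-fold, and the intervals of Cyp1a2 and Cyb5a are the 2 that leave out 0, before adjustment.

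Genes of the receptor complex, with 5 of 6 measured, comprised 1 above and 4 below 0. Hsp90ab1 and Hsp90aa1, the chaperones that hold the unbound receptor, differed by 0.08 (SE 0.05) and -0.06 (SE 0.07). Arnt2, a relative of the partner Arnt, differed by -0.06 (SE 0.07). Of the other direct targets 4 of 7 were measured, all above 0 and none passing, with a median of 0.09. Among these, Gsta1 and Gsta3 were in the lowest 25% of all genes by mean value. Tiparp, Ugt1a6 and Gsta2 were not measured. Cyp2s1, an extrahepatic P450 enzyme found in epithelia, differed by 0.16 (SE 0.10), the glutathione transferase Gsta1 by 0.11 (SE 0.11) and Nfe2l2, which encodes Nrf2, by 0.08 (SE 0.07). Single litters moved several of these values: Arnt2 was at -0.01 without corn oil replicate 7, Hsp90aa1 at -0.03 without corn oil replicate 1, Gsta1 at 0.04 and Cyp2s1 at 0.09 without flutamide replicate 6, and Nfe2l2 at 0.04 without corn oil replicate 2.

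All 11 genes of the Nrf2 list were measured, 6 above and 5 below 0. Osgin1, an Nrf2 target, differed by 0.14 (SE 0.11), the haem oxygenase Hmox1 by 0.10 (SE 0.09) and Gclc, the catalytic subunit for glutathione synthesis, by -0.10 (SE 0.07). Osgin1 was at 0.05 without flutamide replicate 2, Hmox1 at 0.03 without corn oil replicate 3 and Gclc at -0.06 without corn oil replicate 4. Among 6 genes of other xenobiotic receptors and P450 partners, 2 were above and 4 below 0. Cyb5a encodes cytochrome b5, an electron donor to P450 enzymes, and averaged 7.04 ± 0.20 in flutamide and 7.28 ± 0.18 in corn oil litters (SD, n = 7 each). Unadjusted, limma gave this difference of -0.24 (SE 0.09) a p of 0.0159, and adjusted one of 0.428. With the SD of each sample's values as a covariate it was -0.15 with an unadjusted limma p of 0.0508 and an adjusted p of 0.608. Without flutamide replicate 7 and corn oil replicate 1 it was also -0.15 (limma p 0.0961 unadjusted, 0.760 adjusted). Neither fit kept an unadjusted p under 0.05. With single litters left out the Cyb5a difference ran from -0.29 to -0.19, with an unadjusted limma p of at most 0.0416. Adjusted, the smallest limma p over those left-out litters was 0.308. The nuclear receptors Nr1i3 and Nr1i2, known as CAR and PXR, differed by -0.13 (SE 0.08) and 0.08 (SE 0.07). Barrier genes of the epidermis that the receptor is known to influence were measured for 3 of 6, at -0.09 (SE 0.08) for involucrin (Ivl), 0.09 (SE 0.08) for transglutaminase 1 (Tgm1) and -0.04 (SE 0.09) for the transcription factor Ovol1. Ivl was at -0.04 without flutamide replicate 6 and Tgm1 at 0.04 without corn oil replicate 2. Without single litters Nr1i3 ran from -0.18 to -0.09 and Nr1i2 from 0.04 to 0.11.

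Between litters, the receptor and its repressor varied together. With group means subtracted, Ahr and Ahrr had a Pearson r of 0.81 over 14 litters (permutation p = 0.0003, or 0.0063 adjusted over the 21 pairs of members) and a Spearman rho of 0.77 (permutation p = 0.002, adjusted 0.042). Corn oil replicate 1 was lowest of its group in both genes and corn oil replicate 4 highest of all litters in both. Within the flutamide litters r was 0.63 (exact permutation p = 0.152, n = 7), and within the corn oil litters 0.90 (exact permutation p = 0.00754, n = 7). Whether the correlation differed between the groups was not tested. Among the 14496 other genes, 14 had a higher r with Ahr than Ahrr had, and 4 had a higher r with Ahrr than Ahr had.

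**Figure D3:**
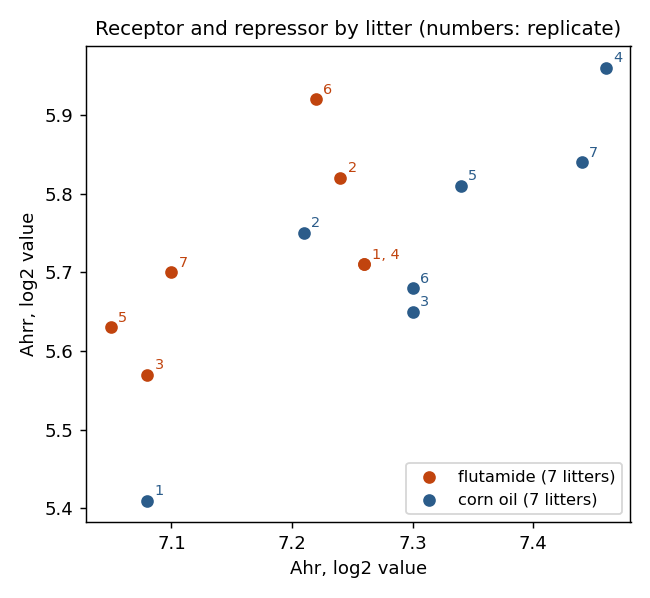
Log2 value of Ahrr (y axis) against that of Ahr (x axis), 1 point per litter with its replicate number, for 7 flutamide and 7 corn oil litters. Corn oil replicate 4 is highest in both genes, flutamide replicate 5 is lowest in Ahr and corn oil replicate 1 is lowest in Ahrr.

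The relation rested in part on single litters. By the values as deposited, the 2 litters farthest from the Ahr median were flutamide replicate 5 and corn oil replicate 4, and without them r was 0.76 with a permutation p of 0.00545 and 0.114 adjusted over the pairs. After subtracting group means the 2 farthest were flutamide replicate 5 and corn oil replicate 1, and without them r was 0.66 with a permutation p of 0.0205 and 0.216 adjusted over the pairs. Without corn oil replicate 1, r was 0.69 with an adjusted permutation p of 0.229, and after quantile normalization it was 0.71 with 0.0991. With the raw values, group means included, r was 0.70 and the adjusted permutation p 0.0993. The SD of each sample's values correlated with Ahr at 0.17 and with Ahrr at 0.07, and r was 0.81 after both were regressed on it.

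No other pair of members passed. The next strongest were Ahr with Cyp1a1 at -0.47, Ahrr with Cyp1b1 at 0.45 and Ahrr with Cyp1a1 at -0.45, each with an adjusted permutation p of 0.539. Cyp1a1 and Cyp1a2, neighbouring genes in many mammals and close in sequence, had an r of -0.15 (permutation p = 0.602, adjusted 0.904). Between Cyp1a1 and Cyp1b1 r was -0.08 (permutation p adjusted 0.968), and between Nqo1 and Aldh3a1 it was 0.31 (permutation p adjusted 0.803). Of the members, Nqo1 followed the SD of each sample's values most closely, with an r of 0.60. The Nqo1 difference was 0.15 with that SD as a covariate, with an unadjusted limma p of 0.0906 and an adjusted p of 0.653. It was 0.14 without flutamide replicate 7 and corn oil replicate 1, against 0.08 with all litters.

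**Figure D4:**
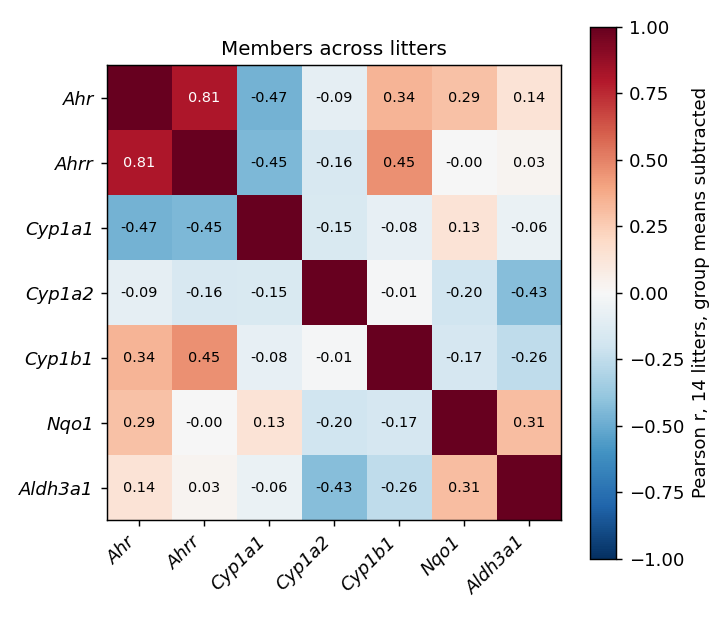
Pearson r between battery members over 14 litters after subtracting group means, from -1 (blue) to 1 (red). Ahr with Ahrr, at 0.81, is the 1 pair past the adjusted permutation test, and Cyp1a1 is negative with both.

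The genes most like each member across litters were found by the same r over 13196 other named genes, given without a p because they are the highest of many. Efr3a (0.94) and Ep300 (0.93) came first for Ahr, and Pgpep1 (0.85) and Astn1 (0.85) for Ahrr. Pigw (0.84) and Arhgap1 (0.83) followed Cyp1a1, and Mark2 (0.87) and Umod (0.86) followed Cyp1a2. For Cyp1b1 they were Antxr1 (0.87) and Fut10 (0.82), for Nqo1 Ocm (0.95) and Ndufb4 (0.89), and for Aldh3a1 Hamp (0.87) and R3hdm1 (0.85). No gene stood in more than 1 of these lists.

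Marker lists were used to see which cell types shifted beside the members. Levels cannot be compared between lists of different genes, so the tissue label was not checked by them. Keratinocyte markers, 5 of 6 measured, had list means between 10.3 and 10.5 in flutamide and in corn oil litters, and 6 fibroblast markers between 9.21 and 9.41 in flutamide and 9.22 and 9.35 in corn oil litters. Liver markers, where Cyp1a2 is known to be strong, had list means between 4.24 and 4.42 in flutamide and 4.26 and 4.55 in corn oil litters, with 3 of 6 genes above 0 and 3 below. Lists with every measured gene lower in flutamide litters were smooth muscle and pericyte (6 genes, median -0.18), skeletal muscle (6 genes, median -0.18), hair follicle (4 genes, median -0.25) and endothelium (5 genes, median -0.09). The smooth muscle list mean ran from 7.37 to 7.69 in flutamide and from 7.52 to 7.83 in corn oil litters, and that of hair follicle from 6.76 to 6.99 in flutamide and from 6.84 to 7.23 in corn oil litters. For skeletal muscle the ranges were 5.76 to 6.41 in flutamide and 5.87 to 6.55 in corn oil litters, and for endothelium 6.78 to 7.05 in flutamide and 6.85 to 7.16 in corn oil litters. No marker passed limma's adjusted test. At an unadjusted limma p under 0.05, 3 of 4 hair follicle and 3 of 6 smooth muscle and pericyte markers were lower, and 0 were higher. In skeletal muscle 1 of 6 was lower and in endothelium 0 of 5, against 3.46% of all genes. Of the other lists, adipocyte had 2 lower and 1 higher, macrophage 1 lower and sebaceous gland 1 higher. The lists were chosen with earlier results of these data known. The part of any of these cell types in the Ahr and Cyp1b1 values was not tested.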

How the data were processed

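Rat foreskin RNA of 14 litters was measured on 1 Affymetrix array each. The authors deposited log2 values of 28826 probe sets, made with RMA per the submitters' processing notes. RMA removes background, sets the arrays to a common distribution, which takes out any change shared by most genes, and sums up probes. Neither its version nor the array's genome build could be read from the labels. Detection calls were not used. Gene names came from GEO's annotation of the platform. Of the probe sets 15209 had 1 gene symbol, 306 several and 13311 none or no listing. Symbols were updated by gene number (14471 of 14497 genes matched), and the brightest probe set over all litters represented each of the 494 genes with more than 1. Groups came from the sample titles.

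Flutamide and corn oil litters were compared with limma 3.58.1 (R 4.3.3) in a two-sided test, and p-values were adjusted by Benjamini-Hochberg over 14497 genes. The fit was tested on simulated data. Single genes also had an exact permutation test over 3432 splits, whose smallest possible p is 0.000583. Correlations used 100000 permutations. Where group means had been subtracted, values were permuted over all litters together, with no allowance for the subtracted means. Those p-values may therefore be somewhat too small. Members and lists were chosen with earlier results of these data known. The text names the 7 members, the 3 genes of smallest p per pathway list and the 2 genes most like each member, passing over predicted and odorant receptor genes in the last. Alternatives were other probe set summaries, filters, scalings, variance models, covariates and left-out litters.

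The labels do not say that a shared replicate number marks a shared dam, day or batch, so it was no block.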

Additional observations from a re-analysis of the deposited data

Results flagged for a closer look

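Within each group of 7 litters, the highest and the lowest value of every member were checked for standing apart from the rest, by their gap to the nearest litter as a share of the group's range. Among the 14 groups, 1 value stood apart. Corn oil replicate 4 had a Cyp1b1 value of 6.76, and its gap took up a share of 0.696 of the range. Chance flags about 1 in 20 groups in such a check. The same litter was also the highest for Ahr and Ahrr. Without it the Cyp1b1 difference, flutamide minus corn oil, was -0.10 with a limma adjusted p of 0.845, against -0.15 with it.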

How the results depend on the processing

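No battery member and no gene of the pathway lists passed in any of the fits run (the lists were not counted over all probe sets), and over these fits and the permutation test the smallest adjusted p of a member was 0.384, for Cyp1a2. Ahrr changed sign with single litters left out (from -0.060 to 0.031), as did Ovol1 (-0.11 to 0.00079, the latter without flutamide replicate 6). The count of all genes past the threshold, 1 here, was 2 with an intensity trend and robust variance and 2 with the array SD as a covariate. It was 0 with the replicate block, 0 without flutamide replicate 7 and corn oil replicate 1, placed by earlier work at the ends of the first principal component, and 0 to 1 with single litters left out. Members with an unadjusted limma p under 0.05 numbered 0 over all probe sets, 0 after quantile normalization, 2 with an intensity trend and robust variance, 0 with the replicate block, 0 with the array SD as a covariate and 0 to 2 with single litters left out, against 1. The Ahr and Ahrr correlation was 0.70 with raw values, 0.76 without the 2 farthest litters, 0.66 without the 2 farthest after subtracting group means, 0.71 after quantile normalization and 0.69 to 0.85 with single litters left out. Adjusted permutation p-values over those left-out litters ran from 0.00546 to 0.229, above 0.05 only without corn oil replicate 1. Settings for this correlation other than raw values and the 2 farthest litters were chosen after seeing the data. Deviations of same-numbered litters correlated at -0.07 to 0.15, with 1 of 7 pairs over 0.1, and 2 of 14 litters correlated best with their own number, so the replicate block was kept to this paragraph. Without detection calls or probe intensities, no member can be called present or absent, least of all dim ones such as Cyp1a1.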
